A study of Rattus norvegicus with 24 samples.

Results

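The Kcn genes of the rat encode potassium channel subunits, and all probes whose platform gene symbol starts with Kcn were taken as members. There were 86 such probes, from 81 genes, among 22523 probes in all, of which 13793 carried a gene symbol. Potassium channels let potassium leave a cell and so set its resting potential and end its action potentials. Voltage-gated, calcium-activated, inward-rectifier and tandem-pore channels share this task in cortical neurons, glia and vessels, and auxiliary subunits control how many pores reach the membrane and how fast they open. Ischemia depolarizes cortical cells and raises potassium outside them, which is why these channels are studied after stroke.

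Cortical RNA of male Wistar rats weighing 250 to 300 g was hybridised to 24 Illumina rat beadchip arrays, 4 for each of 6 groups. In each group, replicates 1 and 2 were labelled slide 1 and replicates 3 and 4 slide 2. Treatment animals had a permanently occluded middle cerebral artery and received 30 mM of the Aurora kinase inhibitor ZM447439 in 80% dimethyl sulfoxide (DMSO) into a cerebral ventricle, vehicle animals had the same occlusion and 80% DMSO alone, and sham animals had the operation without occlusion, with no injection stated. Each was sampled at 24 h and at 8 h. The labels put the occlusion on the left and the tissue on the right, and whether every array stands for its own animal is not stated.

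The groups of a time point could not be compared for any channel. After each column was divided by its median intensity, the 12 columns of 24 h were a single probe profile, and so were the 12 columns of 8 h. Among the 86 members the largest departure of a column from its profile was 2.39e-07 (log2) in the 24 h columns and 2.53e-07 in the 8 h columns. Array medians ran from 76.8 to 115 at 24 h and from 65.3 to 90.1 at 8 h. The spread of a probe's intensities within a time point is that of the array medians, so whether its 24 h and 8 h intensities overlap depends on array brightness and is not read as a result. The values below are therefore levels, as multiples of the array median, in a single 24 h profile and a single 8 h profile, and their log2 difference, 24 h minus 8 h. They have no replicate error and no test. The labels do not say which arrays stand behind a profile, so a difference cannot be assigned to time, occlusion, DMSO or inhibitor. In such bulk tissue, fewer cells of a type and less RNA per cell cannot be told apart.

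Most channel probes differed little between the profiles, and the brighter ones were mostly lower at 24 h. The members lower by at least 0.32 on the log2 scale were the voltage-gated pore genes Kcnh1, Kcnd3 and Kcnc1, the silent subunit gene Kcns2, the tandem-pore genes Kcnk1 and Kcnk12, the inward rectifier gene Kcnj11 and the auxiliary gene Kcnmb4. These were 8 of 86 probes, and 3.83% of all 22523 probes were that much lower. The calcium-activated channel gene Kcnn4 was the single member higher by at least 0.32, against 2.45% of all probes. None of the 86 differed by 1.5-fold, a size reached by 0.617% of all probes upward and 0.497% downward.

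Upstream sequence is shown for the members lower by at least 0.32 that the RefSeq promoter table (assembly GRCr8) held. They differed in the same direction. It is also shown for Kcnd2, which belongs to the same subfamily as Kcnd3 and was not lower. Each run holds the 250 bases before the annotated start of the gene, 5′ to 3′ on the gene's strand. Capitals mark the letters GGGCGG, the GC box, on either strand, and ACGTG, the core of the hypoxia response element, on either strand.
Kcnh1, chr13:106252966-106253215, + strand: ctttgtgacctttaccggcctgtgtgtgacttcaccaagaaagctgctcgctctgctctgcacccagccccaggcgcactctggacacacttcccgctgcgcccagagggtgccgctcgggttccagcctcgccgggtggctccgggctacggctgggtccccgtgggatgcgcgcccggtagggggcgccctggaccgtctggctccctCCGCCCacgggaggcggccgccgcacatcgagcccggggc
Kcnmb4, chr7:54005102-54005351, - strand: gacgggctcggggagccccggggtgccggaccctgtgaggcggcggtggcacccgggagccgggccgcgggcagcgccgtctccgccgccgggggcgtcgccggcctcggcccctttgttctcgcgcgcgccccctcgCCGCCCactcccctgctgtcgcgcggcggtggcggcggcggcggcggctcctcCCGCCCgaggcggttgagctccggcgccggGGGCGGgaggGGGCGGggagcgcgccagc
Kcnd3, chr2:195626066-195626315, + strand: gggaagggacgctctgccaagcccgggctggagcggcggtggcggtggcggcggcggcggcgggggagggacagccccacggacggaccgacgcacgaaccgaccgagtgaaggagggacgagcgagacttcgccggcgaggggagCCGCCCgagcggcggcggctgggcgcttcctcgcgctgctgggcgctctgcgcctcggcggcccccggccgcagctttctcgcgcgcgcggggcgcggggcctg
Kcnc1, chr1:106038997-106039246, + strand: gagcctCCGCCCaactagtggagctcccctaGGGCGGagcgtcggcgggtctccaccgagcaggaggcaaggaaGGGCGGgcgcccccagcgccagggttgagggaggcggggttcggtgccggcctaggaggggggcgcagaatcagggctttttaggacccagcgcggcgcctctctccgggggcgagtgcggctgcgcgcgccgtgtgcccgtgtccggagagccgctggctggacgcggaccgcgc
Kcnd2, chr4:50742235-50742484, + strand: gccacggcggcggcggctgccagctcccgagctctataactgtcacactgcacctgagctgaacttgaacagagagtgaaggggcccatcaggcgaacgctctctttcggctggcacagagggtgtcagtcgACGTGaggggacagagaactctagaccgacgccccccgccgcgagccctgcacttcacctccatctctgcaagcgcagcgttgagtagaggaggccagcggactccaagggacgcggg
Kcnk1, Kcnk12, Kcnj11, Kcns2 and Kcnn4 had no entry.

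The 4 lower genes shown all held a GC box in this window. It lay 40 bases before the start in Kcnh1 and 104 bases before it in Kcnd3, Kcnc1 held 3 and Kcnmb4 held 4. Kcnd2 held none, and its capitals are a hypoxia core 118 bases before the start. Among other lower members, Kcnc2 and Kcnj9 held none, while Kcns1 and Kcnt1 held some. Among other higher members, Kcnab1, Kcnk2 and Kcnq5 held none, while the dim Kcna2 and Kcnj2 held 3 and 1. Whether a GC box goes with direction was not tested. The table held 62 promoters of 56 of the 81 genes, and 30 of these 62 (48.4%) contained a GC box, against 30.5% of all 33469 promoters and 38.9% of the 21851 of protein-coding genes. The median GC content was 59.6% over the channel promoters, against 51.2% over all and 54% over those of protein-coding genes. The 4 lower genes ran from 71.6% in Kcnh1 to 84.4% in Kcnmb4, and Kcnd2 stood at 64%. The hypoxia core occurred in 12.9% of channel promoters, 16.6% of all and 17.2% of protein-coding ones, and the E-box CACGTG, which always contains that core, in 3.23%, 5.59% and 6.16% of them. The AP-1 motif TGANTCA was found in 3.23% of channel promoters, 6.34% of all and 5.69% of protein-coding ones, and the TATA box TATAAA in 3.23%, 12.9% and 12.1%. The cAMP response element TGACGTCA was found in 0 of the 62, 1.59% of all and 1.89% of protein-coding ones. These are matches of letters on both strands, and nothing was measured at them.

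Levels differed widely between probes. Of the 86 probes, 32 lay below the array median in both profiles, 48 at or above it in both and 6 on either side of it. Both levels reached 1.5 times the median for 30 probes, 2 times for 21 and 10 times for 6, which belonged to Kcnk1, Kcnh3, Kcnc2, Kcnd2, Kcnh1 and Kcnk2. The lowest 25% of all probes had levels up to 0.816 at 24 h and up to 0.812 at 8 h, so a level near 1 is close to the bottom of the scale. A probe's brightness depends on its sequence as well as on its transcript. The 3 probes of Kcnc2 had levels of 24.6, 5.23 and 1.96 at 24 h and of 28.9, 6.33 and 2.44 at 8 h, and genes are therefore not ranked against each other by level.

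**Figure D1:**
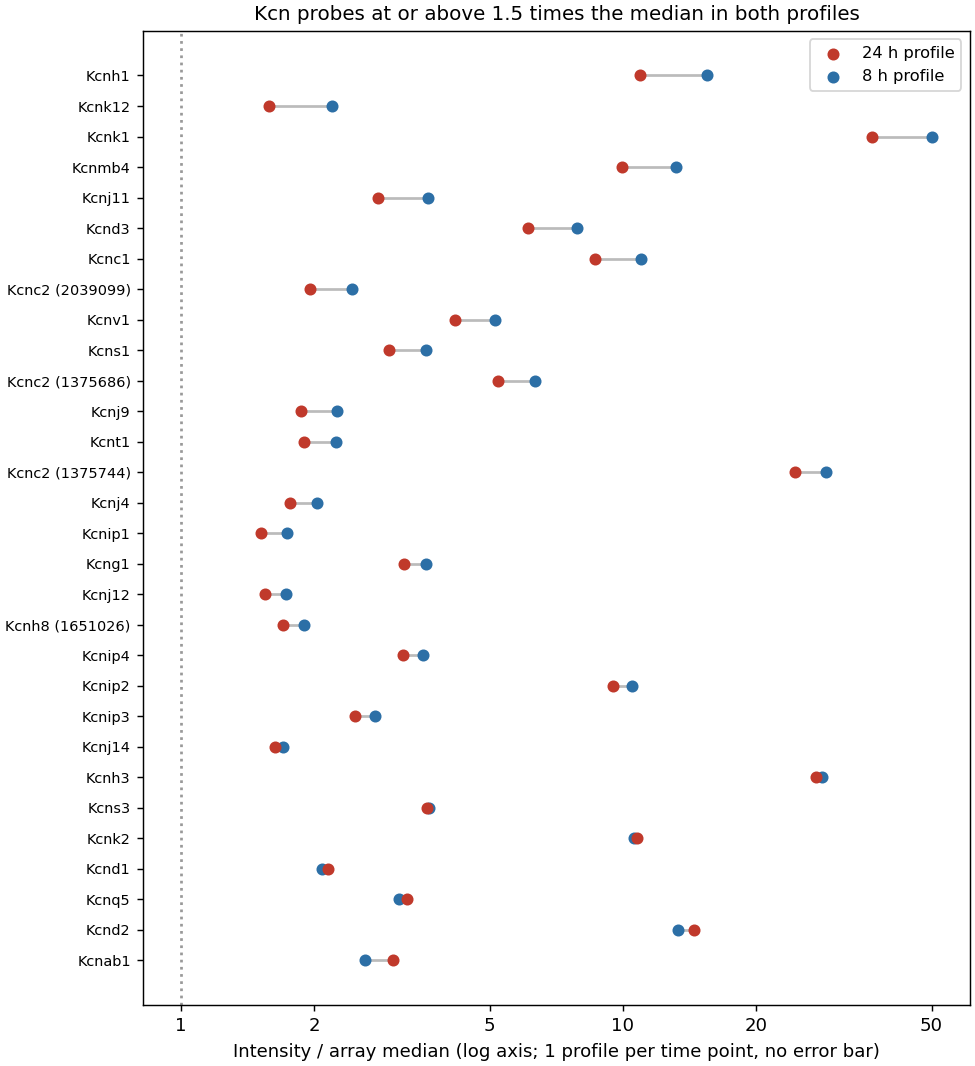
Levels of the 30 Kcn probes at or above 1.5 times the array median in both profiles, on a log axis, with the 24 h profile in red and the 8 h profile in blue (1 profile each, no error). The red point lies left of the blue one for 25 of the 30 probes, with Kcnh1 at 10.9 (24 h) and 15.5 (8 h) times the median at the top and Kcnab1 at 3.02 (24 h) and 2.61 (8 h) at the bottom. Numbers in brackets tell probes of the same gene apart.

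By direction alone, 28 of the 86 probes were higher at 24 h and 58 were lower, beside 46.9% higher and 53.1% lower among all probes. Scaled to the 75th percentile of each column in place of its median, the split of the 86 was 45 higher and 41 lower, beside 33.2% lower among all probes, since this scaling adds the same amount to every difference. The median log2 difference of the members was -0.05, with -0.01 over all probes, and these became 0.00429 and 0.05 with that scaling. The brighter members stood further from 0. Of the 21 probes at or above 2 times the median in both profiles, 5 were higher and 16 lower, with a median of -0.16, whereas 65.1% of all 6635 probes that bright were lower, with a median of -0.08. Among the 21, 6 were lower by at least 0.32 log2, beside 10.5% of the 6635, and none was higher by that much, beside 4.82%. With scaling to the 75th percentile, 14 of the 21 were lower. The share of all probes that bright was not computed under this scaling, and the 65.1% does not apply to it. The count of 6 became 4 with that scaling (6.9% of all probes that bright) and 3 after quantile normalization (6.47%). It was 2 after cyclic loess (5.24%) and 2 after normexp background correction (4.6%). It stayed at 6 with scaling to the median of named probes (11.3%) and was 8 after subtraction of the 1st percentile (13%). With the bound at 1.5 times the median, 25 of 30 members were lower, beside 64.8% of all 7822 probes that bright. The 56 members with a level under 1.5 times the median had a median difference of -0.01.

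**Figure D2:**
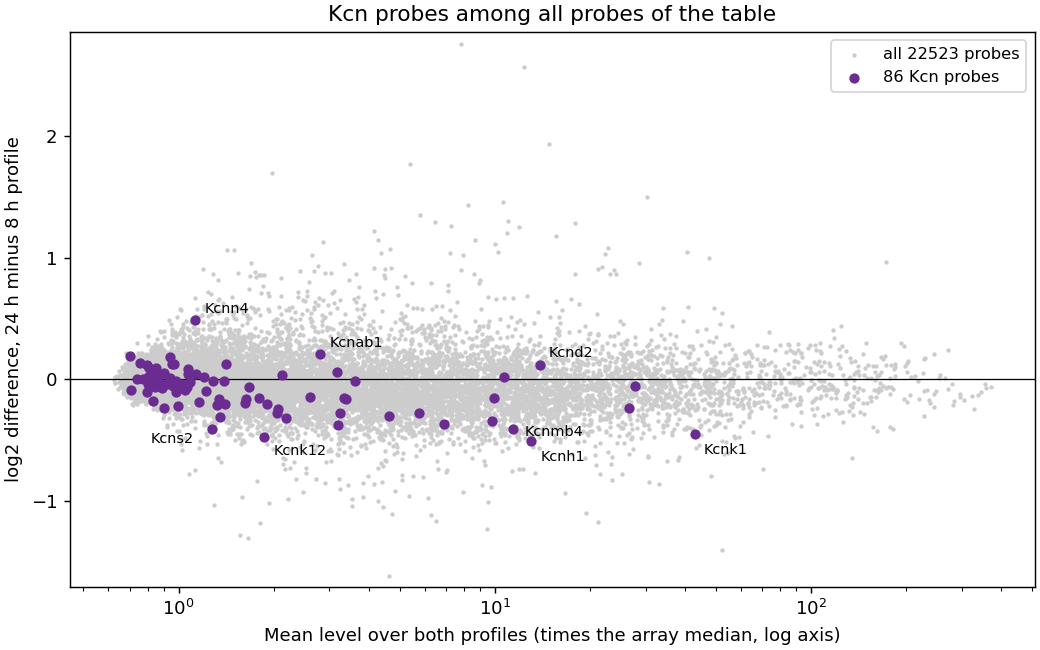
Log2 difference (24 h minus 8 h) against mean level over both profiles, as a multiple of the array median on a log axis, for all 22523 probes in grey and the 86 Kcn probes in purple. The Kcn probes stay between -0.50 (Kcnh1) and 0.49 (Kcnn4), inside the spread of the other probes.

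Among the voltage-gated subunits, the Kcnc pair was lower at every probe. Kcnc1 and Kcnc2 encode the fast delayed rectifiers that let interneurons fire at high rates. Kcnc1 had intensities of 666 to 997 (median 763) on the 12 arrays of 24 h, against 719 to 992 (median 877) on the 12 arrays of 8 h. As multiples of the array median its level was 8.67 at 24 h and 11.01 at 8 h, a log2 difference of -0.34. The 3 Kcnc2 probes gave -0.31, -0.27 and -0.23, so they stood close to each other in difference while far apart in brightness. All 4 Kcnc probes stayed lower under each alternative scaling and background correction tried, and their median was -0.29.

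The Kcnd genes, pore subunits of the A-type current that delays firing in dendrites, did not share a direction. Kcnd3 had intensities of 470 to 703 (median 538) at 24 h, against 514 to 708 (median 626) at 8 h, and levels of 6.12 (24 h) and 7.86 (8 h), a difference of -0.36. Kcnd2, the other bright member, had intensities of 1114 to 1667 (median 1275) at 24 h and 870 to 1200 (median 1061) at 8 h. Its levels were 14.5 (24 h) and 13.3 (8 h) times the median, a difference of 0.12, and Kcnd1 stood at 0.04. Both Kcnd2 and Kcnd1 stayed above 0, and Kcnd3 below it, under every alternative.

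The Kcnip genes encode the calcium-binding proteins that escort Kcnd pores to the membrane. All 4 were lower, within a narrow band. Kcnip2 stood at 9.48 at 24 h and 10.5 at 8 h (difference -0.15), Kcnip3 at 2.48 (24 h) and 2.75 (8 h) (-0.15), Kcnip4 at 3.18 (24 h) and 3.52 (8 h) (-0.15) and Kcnip1 at 1.52 (24 h) and 1.73 (8 h) (-0.19). All 4 stayed below 0 under the alternatives, but their size depended on the processing. Their median of -0.15 shrank to -0.06 after cyclic loess and -0.07 after normexp, and the value of Kcnip2 nearest to 0 was -0.04. In the other direction, Kcnip1 passed 0.32 in size in a single setting (-0.32 after subtraction of the 1st percentile).

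Kcnh1, a pore gene of the ether-a-go-go family found in forebrain neurons, had the lowest difference of all 86 probes. Its intensities were 841 to 1259 (median 963) at 24 h, against 1014 to 1399 (median 1237) at 8 h. Its level was 10.9 at 24 h and 15.5 at 8 h, a difference of -0.50 (-0.51 to -0.39 over the alternatives). Kcnh3, a member of the same family and bright as well, stood at 27.3 (24 h) and 28.3 (8 h) times the median, a difference of -0.05 that turned positive (up to 0.07) under some alternatives. Kcnh2, whose channel repolarizes the heart muscle cell, stood at 1.22 (24 h) and 1.51 (8 h) times the median. The brighter Kcnh8 probe stood at 1.71 (24 h) and 1.90 (8 h) times, and the dimmer one lay below the median in both profiles, at 0.743 (24 h) and 0.739 (8 h) times. The other Kcnh genes, Kcnh4, Kcnh5, Kcnh6 and Kcnh7, were all under 1.5 times the median.

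Silent subunits do not conduct alone and modify the pores they join. Kcnv1 stood at 4.17 at 24 h and 5.15 at 8 h (difference -0.30), Kcns1 at 2.95 (24 h) and 3.58 (8 h) (-0.28) and Kcng1 at 3.21 (24 h) and 3.59 (8 h) (-0.16). Kcns2 was dim, at 1.11 (24 h) and 1.47 (8 h) times the median. Kcns3 stood at 3.60 (24 h) and 3.64 (8 h) times, a difference of -0.02 whose sign depended on the scaling. Kcnq5, a pore gene of the M current that dampens repeated firing, stood at 3.25 (24 h) and 3.11 (8 h) times (0.06). Its relative Kcnq3 lay at 0.813 (24 h) and 0.817 (8 h) times the median.

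The Kcna genes, pore subunits of Shaker-type channels found along axons, were all dim. Their 9 probes lay between 0.772 and 1.31 at 24 h and between 0.768 and 1.498 at 8 h. Kcna4, an A-type member and the brightest probe, stood at 1.31 (24 h) and 1.498 (8 h) times, Kcna1 at 1.04 (24 h) and 1.09 (8 h), Kcna2 at 0.998 (24 h) and 0.912 (8 h), and Kcna3, also used by lymphocytes and microglia, at 0.812 (24 h) and 0.843 (8 h). The 2 Kcna10 probes lay on opposite sides of 0, at -0.05 and 0.04, and the sign of the first depended on the scaling. The auxiliary beta subunit gene Kcnab1, in contrast, had the highest difference among the 30 brighter probes. It had intensities of 232 to 347 (median 266) at 24 h and 171 to 235 (median 208) at 8 h, and levels of 3.02 (24 h) and 2.61 (8 h) times the median, a difference of 0.21 (0.20 to 0.30 over the alternatives). Kcnab2 stood at 1.08 (24 h) and 1.23 (8 h) times. Kcnb2, a delayed rectifier, stood at 1.10 (24 h) and 1.04 (8 h), and Kcnf1 at 0.976 (24 h) and 0.985 (8 h).

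**Figure D3:**
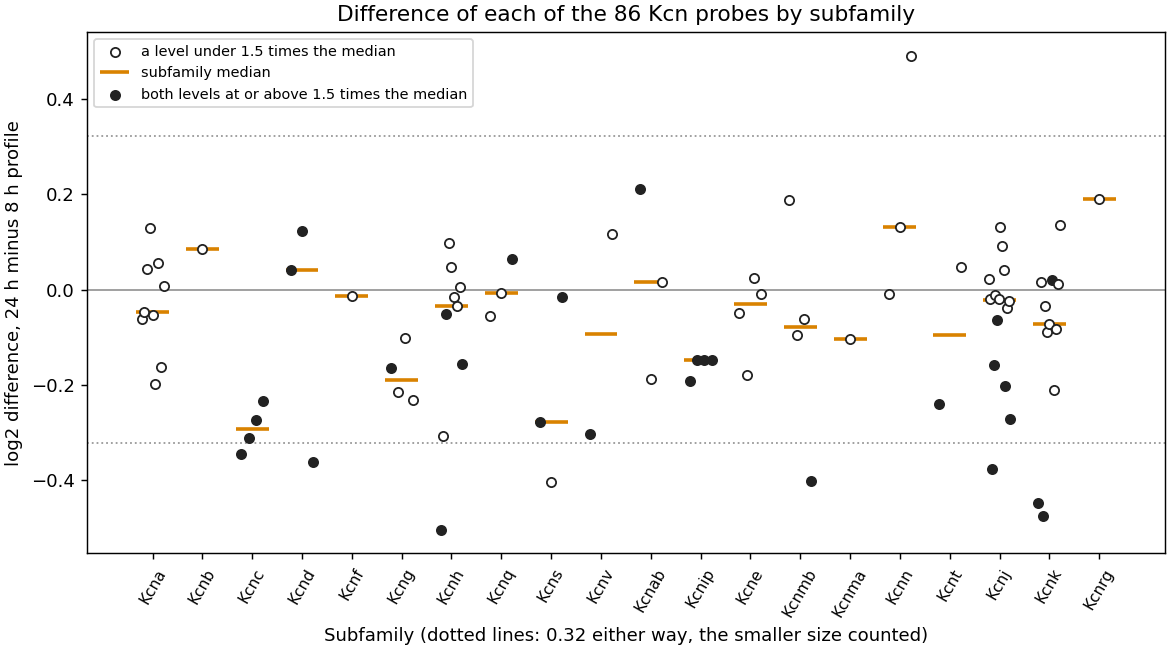
Log2 difference (24 h minus 8 h) of each of the 86 probes by subfamily, with filled points for probes at or above 1.5 times the array median in both profiles, open points for dimmer ones and orange bars for subfamily medians. All Kcnc, Kcng, Kcnip and Kcns points lie below 0, with Kcns3 changing sign under other scalings, while Kcnd and Kcnj points lie on both sides, and Kcnn4 is the open point at 0.49.

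Calcium- and sodium-activated channels held the single member higher by 0.32 or more. Kcnn4 encodes the intermediate-conductance channel of microglia, T cells and endothelium. Its intensities were 103 to 154 (median 118) at 24 h, against 62.2 to 85.8 (median 75.9) at 8 h. Its level was 1.34 at 24 h and 0.952 at 8 h, so it was dim in both. Kcnn3, a small-conductance channel gene, stood at 1.47 (24 h) and 1.35 (8 h) times, and Kcnn1 at 1.28 (24 h) and 1.29 (8 h). Kcnma1, the pore of the large-conductance channel, lay at 0.944 (24 h) and 1.01 (8 h) times the median.

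Kcnmb4, the neuronal beta subunit of that large-conductance channel, was bright and lower. It had intensities of 766 to 1146 (median 877) at 24 h, against 860 to 1187 (median 1049) at 8 h. Its levels were 9.96 (24 h) and 13.2 (8 h) times the median, a difference of -0.40 (-0.41 to -0.29 over the alternatives). The other beta subunit genes were under 1.5 times the median, Kcnmb1, the smooth muscle form, at 1.00 (24 h) and 0.879 (8 h) times. The sodium-activated pore gene Kcnt1 stood at 1.90 (24 h) and 2.24 (8 h) times (-0.24), and Kcnt2 at 1.16 (24 h) and 1.12 (8 h). The 4 Kcne genes, small modifiers of voltage-gated pores, all lay below the array median, Kcne2 at 0.782 (24 h) and 0.886 (8 h) times.

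Of the 14 Kcnj inward rectifiers, the 5 at or above 1.5 times the median in both profiles were all lower, beside 64.8% of all probes that bright. Kcnj11 encodes the pore of the ATP-sensitive channel, which opens when ATP runs low. Its intensities were 215 to 321 (median 246) at 24 h, against 237 to 327 (median 289) at 8 h, and its levels were 2.80 (24 h) and 3.63 (8 h) times the median, a difference of -0.38 (-0.47 to -0.29 over the alternatives). Kcnj9, a subunit of the G-protein-gated channels of neurons, stood at 1.87 (24 h) and 2.26 (8 h) times (-0.27), Kcnj4, a strong rectifier of forebrain neurons, at 1.77 (24 h) and 2.04 (8 h) (-0.20), Kcnj12 at 1.55 (24 h) and 1.73 (8 h) (-0.16) and Kcnj14 at 1.63 (24 h) and 1.70 (8 h) (-0.06). All 5 stayed below 0 under the alternatives, with -0.01 as the value of Kcnj14 nearest to 0.

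The glial and vascular rectifiers gave little signal. Kcnj10, the main potassium channel of astrocytes, had a level of 0.926 at 24 h and 0.938 at 8 h, and its partner Kcnj16 at 1.01 (24 h) and 0.921 (8 h). Kcnj8, the pericyte pore of the ATP-sensitive channel, stood at 1.08 (24 h) and 1.09 (8 h) times, and Kcnj2, used by endothelium, at 0.832 (24 h) and 0.780 (8 h). Kcnj13, a channel of choroid plexus, lay at 0.934 (24 h) and 0.942 (8 h) times. Over the alternatives Kcnj16 (0.12 to 0.47) and Kcnj2 (0.07 to 0.15) stayed above 0, while Kcnj10, Kcnj8 and Kcnj13 took either sign.

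The tandem-pore Kcnk genes carry the resting leak. Kcnk1, a weak leak channel of astrocytes and neurons, had intensities of 2823 to 4223 (median 3232) at 24 h, against 3275 to 4517 (median 3993) at 8 h. Its levels were 36.7 (24 h) and 50.1 (8 h) times the median, a difference of -0.45 (-0.46 to -0.33 over the alternatives). Kcnk2, a stretch- and lipid-gated leak channel, stood at 10.8 (24 h) and 10.6 (8 h) times, a difference of 0.02 that stayed above 0 under the alternatives. Kcnk12, a halothane-inhibited tandem-pore subunit gene, stood at 1.58 (24 h) and 2.20 (8 h) times (-0.47). Its relative Kcnk13, a channel of microglia, lay at 0.791 (24 h) and 0.810 (8 h) times, and the acid-sensitive channel genes Kcnk3 and Kcnk9 at 1.23 (24 h) and 1.42 (8 h) and at 0.790 (24 h) and 0.720 (8 h). Both Kcnk5 probes lay below the median. Kcnrg, a regulator of voltage-gated channels, lay at 0.752 (24 h) and 0.659 (8 h) times.

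Genes that anchor or modulate these channels without being pores were examined beside them. Of 35 listed partners 24 were measured, and 8 were higher and 16 lower at 24 h, with a median of -0.13. Of all probes 53.1% were lower. Among all probes at or above 1.5 times the median in both profiles, as 19 of the partners were, 64.8% were lower. The lowest partner was Abcc8, the sulfonylurea receptor that pairs with Kcnj11, at 4.16 (24 h) and 6.32 (8 h) times the median (-0.60). Flna, an actin crosslinker that binds channels, was the highest at 7.74 (24 h) and 5.17 (8 h) times (0.58), and Calm3, a calmodulin gene, stood at 81.6 (24 h) and 106 (8 h) times (-0.38). The sodium, calcium, HCN and TRP channel genes gave 16 higher and 32 lower of 48 probes. Of the 14 at or above 2 times the median, 4 were lower by at least 0.32, beside 10.5% of all probes that bright. No test sets the potassium channels apart from these other channels.

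Cell type markers differed between the profiles as well. Among all probes 46.9% were higher and 53.1% lower, and 64.8% were lower among those at or above 1.5 times the median. Cortical excitatory neuron markers were measured for 7 of 10 genes, with Slc17a7, the vesicular glutamate transporter, well above the array median at 8.39 (24 h) and 10.6 (8 h) times it. They were lower in 6 of 7 genes (median -0.30, summed level 287 at 24 h and 335 at 8 h). General neuron markers were lower in 8 of 9 genes (median -0.16, 515 at 24 h and 575 at 8 h). Interneuron markers were lower in 8 of 9 (median -0.13, 302 at 24 h and 364 at 8 h). Of these, the lowest were Cck at -0.42, Vip at -0.33 and Pvalb, a marker of fast-spiking cells, at -0.31. The other lower ones ran from -0.17 (Sst) to -0.004 (Calb2). Gad2 was the 1 interneuron marker that was higher, at 0.15. Oligodendrocyte markers were lower in 9 of 9 (median -0.39, 277 at 24 h and 383 at 8 h).

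Microglial, striatal, choroid plexus and endothelial markers were mostly higher. Of the microglia and macrophage markers, 8 of 9 were higher (median 0.69, summed level 126 at 24 h and 69.2 at 8 h), striatal neuron markers in 8 of 9 (median 0.48, 138 at 24 h and 97.8 at 8 h) and choroid plexus markers in 8 of 8 (median 0.32, 39.1 at 24 h and 11.7 at 8 h). Most of the choroid plexus sum was Ttr, the transthyretin gene, at 30.1 (24 h) and 5.10 (8 h). Endothelial markers were higher in 5 of 5 (median 0.15, 42.8 at 24 h and 39.9 at 8 h). Many of these markers were dim. Only 1 of the 8 choroid plexus and 2 of the 5 endothelial markers reached 1.5 times the median in both profiles. The 2 endothelial ones, Cldn5 and Vwf, stood at 0.03 and 0.45. Mural cell markers were higher in 2 of 5 (median -0.01, 13.3 at 24 h and 10.3 at 8 h) and astrocyte markers in 3 of 7 (median -0.02, 621 at 24 h and 522 at 8 h), and the medians of these mural and astrocyte lists took either sign over the alternatives. The astrocyte sum was higher at 24 h through Gfap, the intermediate filament gene of reactive astrocytes, at 241 (24 h) and 124 (8 h). No marker was at 0, since every probe has a positive intensity. The part of these cell type markers in the differences of the channel genes was not tested.

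**Figure D4:**
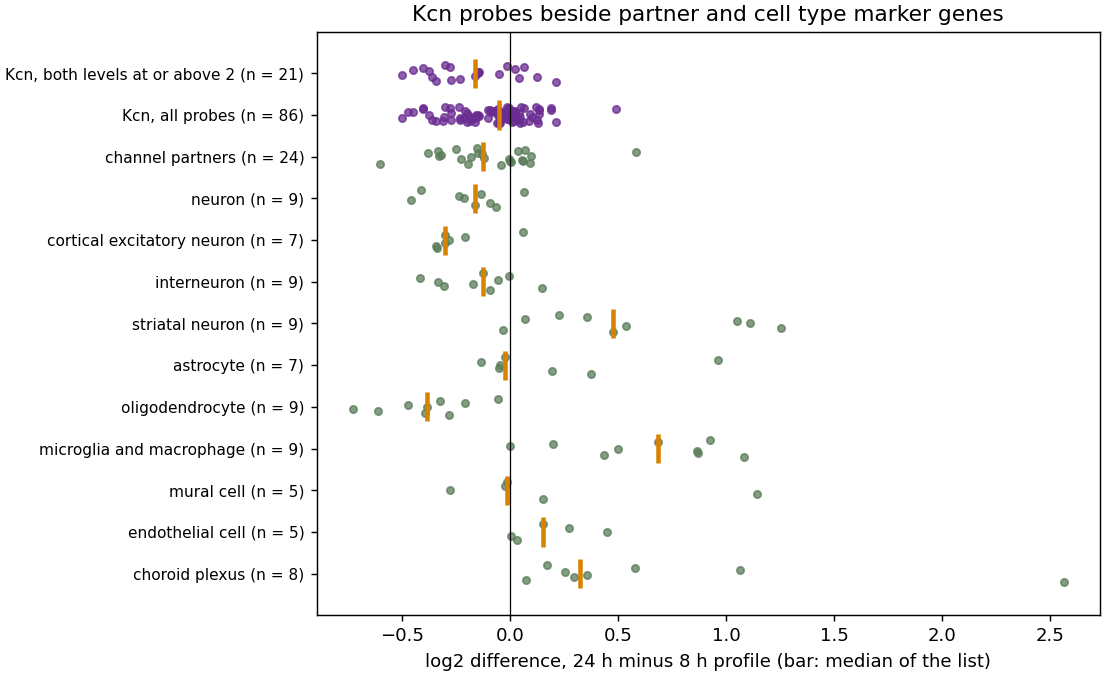
Log2 difference (24 h minus 8 h) of single genes in the marker and partner lists in green and of the Kcn probes in purple, with orange bars for list medians. The median of the 21 brighter Kcn probes, -0.16, lies near those of the neuron (-0.16), interneuron (-0.13) and partner (-0.13) lists, which were not filtered by brightness. The median of all 86 Kcn probes is -0.05. That of all probes as bright as the 21 is -0.08 (not drawn). The medians of the cortical excitatory neuron (-0.30) and oligodendrocyte (-0.39) lists are lower. Those of the microglia, striatal, choroid plexus and endothelial lists lie above 0.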

How the data were processed

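The authors' deposited table gave linear intensities of 22523 probes on 24 arrays, and neither background correction nor normalization is stated. A further 24 columns without sample names were not used. Columns were scaled to their medians and averaged per time point as log2 values, and the 24 h profile minus the 8 h profile gave the difference. The planned limma comparisons of treatment, vehicle and sham could not be fitted, because columns of a time point differ by a factor alone. No precision can be given, since these columns are not independent measurements. Symbols came from the platform annotation, and the gene identifiers of all 86 Kcn probes were found in RefSeq (assembly GRCr8), with 0 symbols changed. Lists used a gene's brightest probe. Sizes of 0.32 log2 and 1.5-fold are descriptions, not tests. Members, lists and tests were chosen with earlier results of these data known. Named genes were the brightest probe of each subfamily, up to 8 highest and 8 lowest differences at or above 1.5 times the median, all past 0.32 in size, genes with several probes, a set of 33 channel genes (29 measured), and up to 3 per list; others are given to complete a subfamily and were chosen with their values in view. The profile step was run on data simulated from the 8 h profile without noise. Recovery of the set differences there checks the code alone and says nothing about precision. Alternatives were other scalings, quantile normalization, cyclic loess, background subtraction, normexp, filters on dim probes, 1 probe per gene, and subsets of arrays (R 4.3.3, limma 3.58.1, Python 3.11.15).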

Additional observations from a re-analysis of the deposited data

Results flagged for a closer look

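The median intensity of the 24 h treatment arrays was set apart by 1 array. Replicate 2 stood at 100.9, against 86.7, 88.5 and 88.6 in the other 3, so that its gap took 0.866 of the group's range, above Dixon's 95% critical value of 0.829 for 4 samples. Chance flags about 1 in 20 groups. Dividing by the array median removes such a factor, and the profile of 24 h was the same without replicate 2.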

How the results depend on the processing

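The counts and medians were the same without each replicate number in turn and on either slide alone, by construction, since the columns of a time point are 1 profile, and this is no sign of stability. No paired analysis was possible because the arrays of a time point differ by nothing but a factor each. Scaling to the 75th percentile gave 45 members higher at 24 h. The median was 0.00429 in place of -0.05 (over all probes 0.05 in place of -0.01). With this scaling, 9 subfamilies had a median below 0 in place of 15. Subfamilies were of unequal size, with 1 probe each for Kcnb, Kcnf, Kcnma and Kcnrg, and these subfamily counts have no background. Subtraction of the 1st percentile, with probes at the floor of 8 left out, left 73 of the 86 members and 16287 probes. It gave 5 members higher by at least 0.32 log2 and 26 lower (11.7% and 15.5% of all probes left). The median was -0.17, beside -0.05 over all probes left. At 1.5-fold, 2 were higher and 5 lower, and the share of all probes at that size was not computed. Subtraction widens the ratio of dim probes. The count lower by at least 0.32 was 5 after quantile normalization, 4 after cyclic loess and 4 after normexp (2.54%, 2.1% and 1.97% of all probes, in place of 3.83%), and all 5 or 4 were among the original 8. The shared set under cyclic loess and normexp was Kcnh1, Kcnk1, Kcnk12 and Kcns2. All 8 kept a difference below 0 in every setting that held them. Leaving out probes under the median gave 11 higher and 39 lower of the 50 members left, and a median of -0.15. Over all probes left, 60.8% were lower and the median was -0.05. Leaving out those under the 75th percentile gave 3 higher, 15 lower, 0 higher by at least 0.32 and a median of -0.25 over the 18 members left. Over all probes left, 65.5% were lower, 5.04% were higher by at least 0.32 and the median was -0.08. Of the 21 members at or above 2 times the median, 14 to 16 were lower under the 6 scalings and corrections. The matching shares of all probes that bright were not computed, so these counts have no background. For single probes and subfamily medians, 808 values stayed within 1.5 times and 181 moved, none of them a reversal of a difference past 0.32. The 808 include the subsets of arrays, which return the main value by construction. For single probes, the filters and 1 probe per gene do so too. The 808 are therefore no measure of stability. Signal limits the rest: levels near 1 lie close to the lowest levels measured, and no detection limit can be given without replicate error.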
